A study of Mus musculus with 6 samples.

Results

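The genes described here make, remodel and place cardiolipin, the signature phospholipid of the inner mitochondrial membrane. They are 10 genes of 54532 in the count table, found by matching Ensembl identifiers to the mouse symbols Cds1, Cds2, Tamm41, Pgs1, Ptpmt1, Crls1, Lclat1, Prelid1, Triap1 and Stoml2 in GENCODE M21, and all 10 matched 1 row each. RNA was sequenced from quadriceps of pups on chow at postnatal day 10, with 3 control libraries of genotype Pcyt2 flox/flox and 3 libraries of genotype Myf5Cre-Pcyt2 flox/flox. Both groups carry the floxed Pcyt2 alleles, and Cre is expressed from Myf5, a gene of muscle precursors, in the second group only as far as the labels say. No label gives the controls a Cre allele, and effects of Cre itself and of Pcyt2 loss cannot be told apart. The labels do not say whether the pups were littermates or whether each library is 1 pup, so the tests measure the spread between these libraries.

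Cardiolipin is built from phosphatidic acid, which reaches mitochondria from the endoplasmic reticulum and is carried across the intermembrane space by the PRELID1-TRIAP1 complex. On the inner membrane, TAMM41 activates it to CDP-diacylglycerol, PGS1 and PTPMT1 turn that into phosphatidylglycerol, and CRLS1 joins phosphatidylglycerol to a second CDP-diacylglycerol. Cardiolipin holds respiratory complexes and cristae in shape, and it shares the inner membrane with phosphatidylethanolamine, the lipid whose CDP-ethanolamine route needs Pcyt2. Skeletal muscle is rich in both lipids.

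Library totals lay between 17775898 and 20446920 counts, and replicate 3 of each group was male by its Xist and Y-linked counts while the other 4 libraries were female. Pcyt2 itself had 18.7, 16.1 and 16.1 CPM (counts scaled to a common library size) in control replicates 1, 2 and 3 and 14.9, 14.3 and 12.6 CPM in Myf5Cre-Pcyt2 replicates 1, 2 and 3. The group ranges did not overlap, but the difference did not pass the test (log2 fold change −0.28, SE 0.11, adjusted p = 0.0944). The sources used here do not give the deleted exons, so a whole-gene count does not measure the intact transcript. The muscle fibre genes Ckm, Acta1, Myh4, Ttn, Des and Tnnt3, all detected, summed to 128700 to 183100 CPM in control and 86350 to 108200 CPM in Myf5Cre-Pcyt2. Of these 6 genes 2 passed as lower, Ckm and Tnnt3, beside 18.6% of all tested genes that passed. The fitted changes were negative for 5 and positive for 1, Ttn (log2 fold change 0.20, adjusted p = 0.53 by edgeR). Des was at −0.13 (adjusted p = 0.488 by edgeR). In such bulk tissue, fewer cells of a type and less RNA per cell cannot be told apart.

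None of the 10 cardiolipin genes passed the threshold between the groups, an adjusted p of 0.05 in edgeR's quasi-likelihood test over 14715 genes, although all 10 were tested. In the same fit 18.6% of all tested genes passed, made up of 9.02% that were higher in Myf5Cre-Pcyt2 and 9.59% that were lower. At an unadjusted p under 0.05 there was 1 cardiolipin gene, Stoml2, with edgeR, and also 1 with DESeq2 and with limma-voom, neither of which called any of the 10 after adjustment. Of all tested genes 34.5% had an unadjusted edgeR p under 0.05. The fitted changes were negative for 7 genes and positive for 3, with a median log2 fold change of −0.11 beside 0.00 for all tested genes. Without control replicate 1 that median was −0.02. Scaling by library size alone moved the median of all genes to 0.21 and that of the 10 genes to 0.10. The summed level of the 10 genes was 283.7 to 303.4 CPM in the controls against 277.6 to 288.1 CPM in Myf5Cre-Pcyt2, so the groups overlapped.

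The data bounded the change of 9 of the 10 genes to well under 2-fold. Their 95% intervals together ran from 71.0 to 141% of the control level. Cds1 was the exception, at 69.3% of control with an interval from 37.9 to 127%. All 10 fitted changes were smaller than 1.5-fold. When counts with known changes were simulated for this design and fitted over 14712 genes, 60% of the 1.5-fold changes and 100% of the 2-fold changes were recovered, but 14% at the smallest fold simulated, which was below 1.5. Those changes were placed only in genes with more counts than Cds1, with the same dispersion for every gene. Only 50 genes were changed at each fold, a smaller share than passed in the data. The rates are therefore a guide and not the power for these 10 genes.

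**Figure D1:**
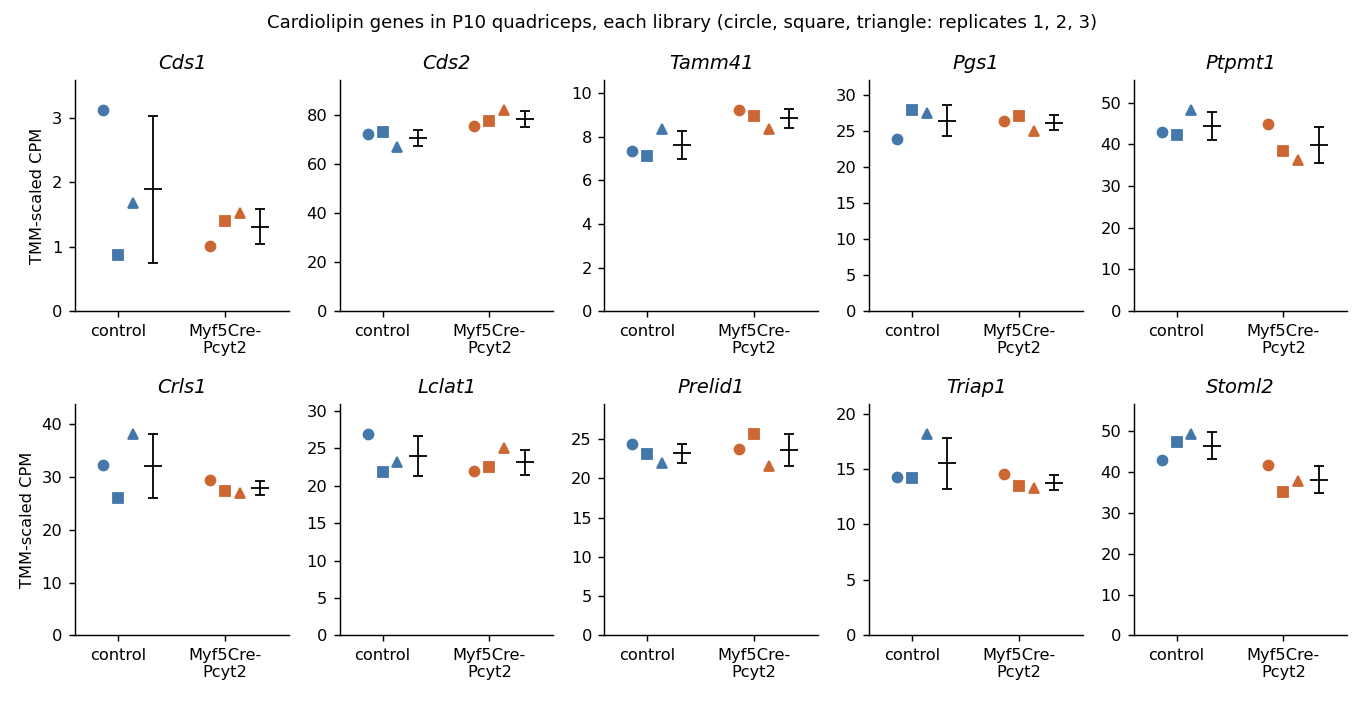
Each panel plots 1 cardiolipin gene, with TMM-scaled CPM from 0 on the vertical axis and the control and Myf5Cre-Pcyt2 libraries on the horizontal axis; symbols are replicates 1, 2 and 3, and the bar is the mean with the SD of n = 3. The Stoml2 libraries of Myf5Cre-Pcyt2 sit between 35.0 and 41.6 CPM, below all 3 controls, while most other panels overlap.

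Outside mitochondria, CDP-diacylglycerol is made by CDS1 and CDS2, enzymes of the endoplasmic reticulum that catalyse the same reaction and supply phosphatidylinositol synthesis. Cds2 (ENSMUSG00000058793, GRCm38 chromosome 2, 132263148 to 132312050) had 72.3, 73.1 and 67.0 CPM in control and 75.4, 77.9 and 82.2 CPM in Myf5Cre-Pcyt2. All 3 Myf5Cre-Pcyt2 libraries were above all 3 controls, by a small margin. The log2 fold change was 0.15 (SE 0.08, adjusted p = 0.215). Cds2 passed with library size alone (log2 fold change 0.36, adjusted p = 0.0211), and in none of the other 14 alternatives. That scaling raised the fitted change of every one of the 10 genes.

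Cds1 (ENSMUSG00000029330, chromosome 5, 101765130 to 101823858) was the least abundant of the 10 genes, with only 59, 15 and 29 counts in the controls against 19, 32 and 33 in the Myf5Cre-Pcyt2 libraries. The control libraries alone spanned 0.870 to 3.12 CPM and enclosed all the Myf5Cre-Pcyt2 values of 1.01 to 1.53 CPM. Its log2 fold change of −0.53 (SE 0.39, adjusted p = 0.368) rested on control replicate 1, the highest library, and was 0.05 without it. The 5 adipocyte markers (Adipoq, Plin1, Fabp4, Cfd and Lep) had the same order over the controls, summing to 889.5, 320.2 and 540.7 CPM in replicates 1, 2 and 3. In Myf5Cre-Pcyt2 replicates 1, 2 and 3 they summed to 434.3, 506.1 and 493.2 CPM. Cds1 had a different order there, at 1.01, 1.40 and 1.53 CPM. The part of these markers in the Cds1 level was not tested. Per kilobase of exon, Cds2 exceeded Cds1 by 9.99-, 36.3- and 17.2-fold in the 3 controls and by 32.1-, 24.1- and 23.3-fold in the Myf5Cre-Pcyt2 libraries. Cds2 was therefore the main CDS transcript in every library. The log2 of this ratio averaged 4.20 ± 0.93 over controls and 4.71 ± 0.26 over Myf5Cre-Pcyt2 libraries (SD, n = 3 per group). The difference of 0.51 had p = 0.5 in a two-sided exact permutation test, which cannot go below 0.1 here. Without control replicate 1 the difference was 0.07, and without control replicate 2 it was 0.997.

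The mitochondrial pathway itself has 4 steps in this set, and none of the 4 passed the test or shared 1 sign with all the others. Tamm41, which encodes the CDP-diacylglycerol synthase of mitochondria (ENSMUSG00000030316, chromosome 6, 115004381 to 115037876), had 7.36, 7.14 and 8.34 CPM in control and 9.24, 8.95 and 8.36 CPM in Myf5Cre-Pcyt2. Its groups did not overlap, but control replicate 3 and Myf5Cre-Pcyt2 replicate 3, both male, were nearly equal. The log2 fold change was 0.22 (SE 0.13, adjusted p = 0.248), the most positive of the 10, and with library size alone it was 0.42 (adjusted p = 0.0675).

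Pgs1 encodes phosphatidylglycerophosphate synthase, the committed step (ENSMUSG00000017715, chromosome 11, 117986292 to 118024011), and lies 2.62 Mb from Pcyt2. It had 23.9, 27.9 and 27.5 CPM in control and 26.4, 27.0 and 24.99 CPM in Myf5Cre-Pcyt2. The Myf5Cre-Pcyt2 values lay inside the control range, and the log2 fold change was −0.02 with a 95% interval from −0.22 to 0.18. This was the change closest to 0 of the 10 genes.

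Ptpmt1 encodes the phosphatase that removes the phosphate from phosphatidylglycerophosphate (ENSMUSG00000063235, chromosome 2, 90908716 to 90918258), and GENCODE M21 gives its gene type as processed transcript. Levels were 42.9, 42.2 and 48.3 CPM in control and 44.8, 38.4 and 36.3 CPM in Myf5Cre-Pcyt2. The groups overlapped through Myf5Cre-Pcyt2 replicate 1, and the log2 fold change was −0.16 (SE 0.10, adjusted p = 0.289). It was −0.25 without that library (adjusted p = 0.121), −0.0973 without Myf5Cre-Pcyt2 replicate 3 and −0.0987 without control replicate 3. On the opposite strand, exons of Kbtbd4 cover 45.0% of the Ptpmt1 exon bases, and no source used here gives the strand setting of the counting, so reads in that stretch have an uncertain origin. Kbtbd4 had a log2 fold change of −0.08 (adjusted p = 0.585).

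Crls1 encodes cardiolipin synthase, the last step (ENSMUSG00000027357, chromosome 2, 132846666 to 132866785), 0.584 Mb from Cds2. It had 32.3, 26.0 and 38.1 CPM in control and 29.4, 27.4 and 27.0 CPM in Myf5Cre-Pcyt2. All Myf5Cre-Pcyt2 values fell within the control range, which was wide, with a coefficient of variation of 18.9% in control against 4.64% in Myf5Cre-Pcyt2. The log2 fold change of −0.20 (SE 0.13, adjusted p = 0.277) became −0.33 without control replicate 2 (adjusted p = 0.0726) and −0.07 without control replicate 3 (adjusted p = 0.725).

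Lclat1 encodes an acyltransferase that re-acylates lysocardiolipin (ENSMUSG00000054469, chromosome 17, 73107985 to 73243368). It had 26.9, 21.8 and 23.2 CPM in control and 21.9, 22.5 and 25.04 CPM in Myf5Cre-Pcyt2. The ranges overlapped almost entirely, with a log2 fold change of −0.05 and a 95% interval from −0.28 to 0.18.

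PRELID1 and TRIAP1 form the complex that shuttles phosphatidic acid through the intermembrane space. Prelid1 (ENSMUSG00000021486, chromosome 13, 55320500 to 55325272) had 24.4, 23.2 and 22.0 CPM in control and 23.8, 25.6 and 21.6 CPM in Myf5Cre-Pcyt2. Its log2 fold change was 0.03, with a 95% interval from −0.18 to 0.24. Triap1 (ENSMUSG00000029535, chromosome 5, 115341225 to 115343569) had 14.2, 14.2 and 18.1 CPM in control and 14.5, 13.5 and 13.3 CPM in Myf5Cre-Pcyt2. Its fitted change was −0.17 on the log2 scale (SE 0.12, adjusted p = 0.325). In both genes the groups overlapped, and control replicate 3 was the highest of the 6 libraries for Triap1. Without that library the Triap1 change was −0.05. Exons of Rab24 on the opposite strand cover 46.1% of the Prelid1 exon bases, so the Prelid1 count carries the same uncertainty as that of Ptpmt1, and Rab24 had a log2 fold change of −0.05 (adjusted p = 0.719).

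Stoml2 encodes an inner-membrane protein of the stomatin family that binds cardiolipin and prohibitins and organises membrane domains (ENSMUSG00000028455, chromosome 4, 43027690 to 43031710). It had 42.8, 47.3 and 49.2 CPM in control and 41.6, 35.0 and 37.8 CPM in Myf5Cre-Pcyt2. Every Myf5Cre-Pcyt2 library was below every control library, and control replicate 1 and Myf5Cre-Pcyt2 replicate 1 were the closest. Means were 46.4 ± 3.30 CPM for control and 38.1 ± 3.32 CPM for Myf5Cre-Pcyt2 (SD over 3 libraries). The fitted change of −0.29 (log2, SE 0.09) did not pass, with an adjusted p = 0.0588 by edgeR. It passed without control replicate 1 (adjusted p = 0.0420) and without Myf5Cre-Pcyt2 replicate 1 (adjusted p = 0.0475), and over all 15 alternatives the adjusted p ranged from 0.0420 to 0.599, the highest with library size alone, where the change was −0.08. Stoml2, Cds2 and Tamm41 were the 3 of 10 genes whose group ranges did not overlap, against 39% of all tested genes, so that share was near the background. Exons of Gm26643 on the opposite strand cover 16.6% of the Stoml2 exon bases, so reads in that stretch have an uncertain origin.

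**Figure D2:**
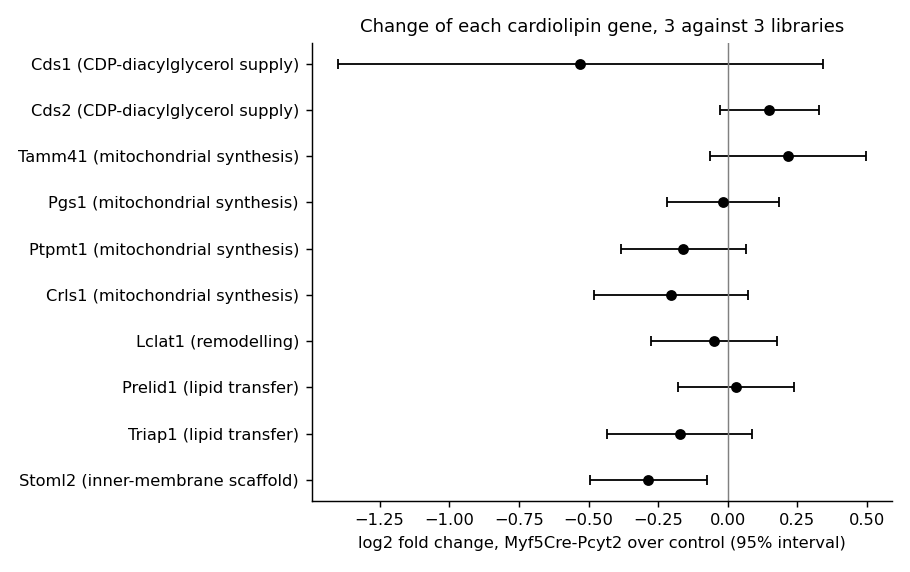
The log2 fold change of each cardiolipin gene (Myf5Cre-Pcyt2 over control) is on the horizontal axis, with points for the fitted change and bars for its 95% interval. Stoml2 is the gene whose unadjusted interval, from −0.49 to −0.08, leaves out 0, and the Cds1 interval is the widest.

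Stoml2 and Prelid1 are shown by sequence because they hold the same motif letters upstream while their fitted changes were −0.29 and 0.03. RefSeq promoter windows (GRCm38.p6) were found for 9 of the 10 genes, all but Tamm41, and the 250 bases before each RefSeq start site were searched on both strands. Upstream here refers to that start site. The matches of Stoml2, Prelid1, Ptpmt1 and Pgs1 lie inside the wider GENCODE gene spans given above. The motif CCGGAAG, bound by ETS family factors, was present in 6.91% of all 32851 windows. It was in 2 of the 11 windows of the 9 genes, and so upstream of 2 of these genes. The 30 bases around each match are given 5′ to 3′ on the gene's strand, with the motif in capitals, for Stoml2 at chr4:43031471-43031500 on the minus strand and for Prelid1 at chr13:55321977-55322006 and chr13:55322007-55322036 on the plus strand.
Stoml2: ggactaatacgCCGGAAGtacgtcgggcgg
Prelid1, first match: tgacgcgggcgCCGGAAGtggccgatccta
Prelid1, second match: tgcatccggcgCCGGAAGcgtcgtgcagtc
The E-box CACGTG (6.02% of windows) was upstream of Crls1 and Prelid1, where it does not overlap the motif above. AAGGTCA, which estrogen-related receptors bind (4.08%), was upstream of Ptpmt1. TGACGTCA, the cAMP response element (1.55%), was upstream of Cds1, and the NRF1 letters GCGCNTGCG (5.19%) were upstream of Pgs1. No motif searched was shared by more than 2 of the genes, and the motifs were chosen with these windows and results in view.

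Compared per kilobase of exon, a rough way to set levels of different genes side by side, the enzymes of successive steps differed widely. Exons of all transcripts of a gene were merged, so which transcripts were used was not taken into account. The levels of Ptpmt1 and Prelid1, and to a smaller extent that of Stoml2, also carry the strand uncertainty described above. In control muscle Crls1 had the highest level at 15.4 ± 2.91 CPM per kb, followed by Stoml2 at 15.4 ± 1.09, Triap1 at 14.3 ± 2.09 and Ptpmt1 at 12.1 ± 0.897 (SD, n = 3). Neighbours among these 4 overlapped in their control ranges. Prelid1 and Cds2 came next at 8.51 ± 0.439 and 7.76 ± 0.362 CPM per kb, with ranges that just separated (lowest Prelid1 library 8.08, highest Cds2 library 8.01). Pgs1 and Lclat1 were not separable at 4.96 ± 0.409 and 4.90 ± 0.536 CPM per kb. Tamm41 at 1.44 ± 0.122 and Cds1 at 0.480 ± 0.290 CPM per kb were the lowest. Along the mitochondrial route the order of mean levels was thus Crls1, Ptpmt1, Pgs1 and Tamm41 from high to low. Crls1 and Ptpmt1 were not separated, with 12.48 CPM per kb in the lowest Crls1 control library and 13.1 in the highest Ptpmt1 one. In Myf5Cre-Pcyt2 muscle the order of the 10 genes was the same except that Triap1, at 12.7 ± 0.617, stood just above Stoml2, at 12.6 ± 1.10 CPM per kb.

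The genes around this pathway were followed as 6 lists fixed together with the 10 genes. In these lists 6 of 39 tested genes passed, or 15.4%, beside 18.6% of all tested genes in either direction. All 6 were lower in Myf5Cre-Pcyt2 with TMM scaling, while of all tested genes 9.59% were lower and 9.02% higher. The difference between these shares was not tested. Of 7 genes for cardiolipin remodelling, breakdown and relocation, 6 were tested, 2 fell and 0 rose (median −0.05). Pla2g6, a calcium-independent phospholipase that releases acyl chains, had 19.5, 17.6 and 16.5 CPM in control and 13.1, 11.4 and 12.2 CPM in Myf5Cre-Pcyt2, and fell by 0.55 on the log2 scale (SE 0.11, adjusted p = 0.0080). Pnpla8, a related phospholipase of mitochondria and peroxisomes, fell by 0.33 (SE 0.10, adjusted p = 0.0402), with a mean of 110.9 ± 4.09 CPM over controls against 88.2 ± 10.04 CPM over Myf5Cre-Pcyt2 libraries (SD over 3 libraries). Both phospholipases had lower levels in all 3 Myf5Cre-Pcyt2 libraries than in any control. Pnpla8 passed without control replicate 1 but not without any other single library, with adjusted p of 0.107 and 0.0671 without control replicates 2 and 3 and 0.0557, 0.149 and 0.0614 without Myf5Cre-Pcyt2 replicates 1, 2 and 3. With library size alone Pla2g6 did not pass (0.0648) and neither did Pnpla8 (0.379). The transacylase gene Taz, whose product matures cardiolipin in muscle, had 42.9 ± 0.230 and 43.5 ± 1.47 CPM (log2 fold change 0.02, adjusted p = 0.877).

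Of the 8 genes for phosphatidic acid supply and other use of CDP-diacylglycerol, 1 fell and 0 rose (median −0.16). It was Agpat1, an acyltransferase of the endoplasmic reticulum that makes phosphatidic acid, with 57.9, 64.7 and 59.7 CPM in control and 44.1, 39.5 and 43.5 CPM in Myf5Cre-Pcyt2 (log2 fold change −0.52, SE 0.09, adjusted p = 0.0047). Agpat1 was below the control range in all 3 Myf5Cre-Pcyt2 libraries and passed in all 14 alternatives run for it, with adjusted p from 2.32e-05 to 0.0316. Without control replicate 2, 2 genes of this list were lower, and with library size alone 1 was higher. None of 2 tested PRELI-like genes passed with edgeR, with 1 at an unadjusted p under 0.05. DESeq2 called 1 of the pair lower, as did edgeR without control replicate 1. The gene with the smaller p, Prelid3b, encodes a relative of PRELID1 that carries phosphatidylserine, and had 90.6 ± 8.70 and 73.6 ± 6.84 CPM (−0.30, SE 0.10, adjusted p = 0.0619). Pisd, which makes phosphatidylethanolamine inside mitochondria, had 8.42 ± 0.420 and 8.98 ± 0.404 CPM (0.09, adjusted p = 0.606).

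Of 12 genes for inner-membrane scaffolds, cristae and proteases, 2 fell, 0 rose and 11 had a negative fitted change (median −0.19). Immt, the core of the cristae junction complex, had 358, 410 and 408 CPM in control against 318, 268 and 318 CPM in Myf5Cre-Pcyt2 (−0.38, SE 0.11, adjusted p = 0.0318). Oma1, the protease that cleaves OPA1, had 27.4, 36.0 and 36.6 CPM in control against 22.3, 21.9 and 23.5 CPM in Myf5Cre-Pcyt2 (−0.56, SE 0.11, adjusted p = 0.0100). For each of these genes all 3 Myf5Cre-Pcyt2 libraries were below all 3 controls. Of the prohibitin genes, Phb had a log2 fold change of −0.29 (adjusted p = 0.0675) and Phb2 had −0.04 (adjusted p = 0.806), and neither passed. Immt did not pass without control replicates 2 (0.0823) and 3 (0.0670) or Myf5Cre-Pcyt2 replicates 2 (0.124) and 3 (0.0747), and Oma1 did not pass without Myf5Cre-Pcyt2 replicate 2 (0.0523). The count of lower genes was 5 without control replicate 1, 1 when control replicate 2, control replicate 3 or Myf5Cre-Pcyt2 replicate 3 was left out, and 0 when Myf5Cre-Pcyt2 replicate 2 was left out or library size alone was used.

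The 10 cardiolipin genes can be set beside genes for other parts of mitochondria. Of 10 markers of mitochondrial content, 1 fell and 0 rose (median −0.15). The marker was the citrate synthase gene Cs, at 1119 ± 83.1 and 867 ± 58.4 CPM (−0.37, SE 0.11, adjusted p = 0.0422), which did not pass when any library other than control replicate 1 was left out (adjusted p 0.0524 to 0.154). Without control replicate 1, 2 markers were lower, and DESeq2 called 3. Of 64 tested subunit genes of respiratory complexes I to IV, 47 fell and 0 rose, with a median log2 fold change of −0.43. Of all tested genes 9.59% were lower. The subunit set was added after its values were seen, so it is not a neutral comparison. Leaving out Myf5Cre-Pcyt2 replicate 2 gave 13 lower subunit genes, leaving out replicate 3 of that group gave 17, and leaving out control replicate 3 gave 29. The count was 28 with the replicate block and 16 when scaled by library size alone. The difference between these lists and the cardiolipin genes was not tested.

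**Figure D3:**
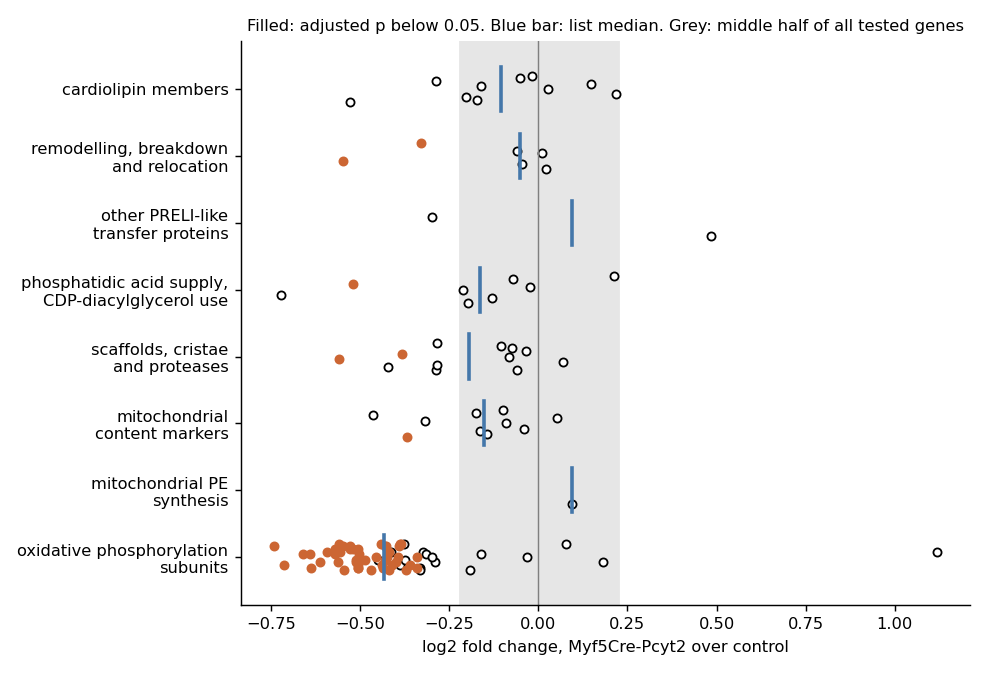
Each point is the log2 fold change (Myf5Cre-Pcyt2 over control) of 1 tested gene, grouped by list; filled points have an adjusted p below 0.05, blue bars are list medians and the grey band runs from the lower to the upper quartile of all tested genes. The cardiolipin genes are all open and have a median of −0.11, while 47 of 64 respiratory subunit genes are filled, with a median of −0.43. Of all tested genes 9.59% were lower at this threshold, and the subunit set was added after its values were seen.

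Across the 6 libraries the cardiolipin genes and the respiratory subunits were also followed by their median level. The median centred log2 level of the 10 genes, relative to the mean of the 6 libraries, was 0.03, −0.03 and 0.10 in control replicates 1, 2 and 3 and 0.00, −0.07 and −0.09 in the Myf5Cre-Pcyt2 replicates. The same measure for the respiratory subunits was 0.13, 0.20 and 0.36 in control against −0.06, −0.31 and −0.29 in Myf5Cre-Pcyt2, with no overlap. Control replicate 3 was the highest library for 4 of the 10 cardiolipin genes and for 51 of the 64 tested subunit genes. Control replicate 2 was the lowest library for 4 of the 10, whereas Myf5Cre-Pcyt2 replicate 1 was lowest for none of them.

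**Figure D4:**
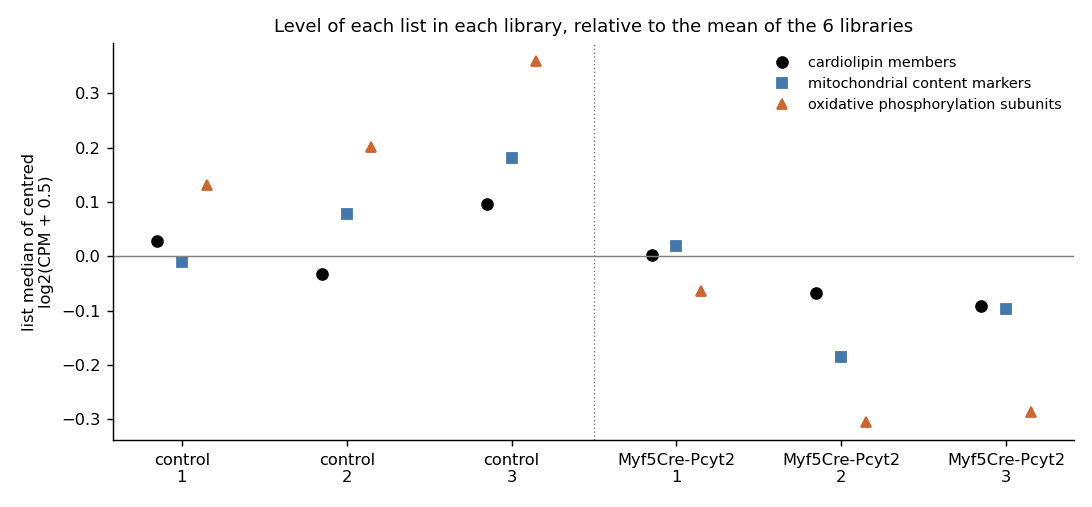
The vertical axis is the median over each list of log2(CPM + 0.5) after subtracting each gene's mean over the 6 libraries, shown for the cardiolipin genes, the mitochondrial content markers and the respiratory subunits. The cardiolipin medians stay between −0.09 and 0.10 and the groups overlap, while the subunit medians separate the groups.

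Some markers of other cells also passed between the groups and most did not, beside 18.6% of all tested genes that passed. The 6 fibroblast and matrix markers summed to 11530 to 15170 CPM in the controls and 16110 to 18120 CPM in the Myf5Cre-Pcyt2 libraries. Of these 6 genes 1 was higher. The 4 satellite cell markers summed to 45.0 to 48.8 CPM in control and 58.8 to 66.3 CPM in Myf5Cre-Pcyt2, with 2 higher. Myf5, the gene named in the Cre allele, is among these 4 but did not pass (log2 fold change 0.13, adjusted p = 0.63 by edgeR). Of the 5 endothelial markers 1 was lower, of the 5 red blood cell markers 1 was higher, and of the 5 macrophage and 5 adipocyte markers 0 passed with edgeR, with 2 and 1 at an unadjusted p under 0.05. The share of all tested genes with an unadjusted edgeR p under 0.05 was 34.5%. No marker of these lists was at 0 in all libraries. The part of these cells in the levels of the cardiolipin genes was not tested.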

How the data were processed

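The deposited values are raw counts per Ensembl gene, as the authors made them. The submitters' processing notes list GRCm38/mm10, featureCounts from Subread (version 1.6.2), Bowtie2 (2.3.4.1) and Trim Galore (0.5.0), and no source used here gives the annotation release, the strand setting or the treatment of multi-mapped reads. Symbols, positions and merged exon lengths came from GENCODE M21 (GRCm38), which held 54495 of the 54532 genes, of which 26363 had 0 counts throughout.

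Each library was made from 1.3 µg of total RNA. The whole table was fitted with edgeR 4.0.16 in R 4.3.3 (filterByExpr, TMM scaling, two-sided quasi-likelihood test), and p-values of its 14715 tested genes were adjusted by the Benjamini-Hochberg method. SE is the fitted change divided by the root of its F statistic, and 95% intervals use it with 10.69 degrees of freedom. CPM values are scaled by TMM and errors beside means are SD with n = 3. Alternatives used DESeq2 1.42.0, limma 3.58.1 (voom), other scalings and filters, a replicate block, a sex covariate and each library left out. Figures were drawn with matplotlib 3.10.9. The procedure was tested on simulated data.

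The 10 genes, the lists and the tests were chosen with earlier results of these data known. The rule for named genes took all 10, up to 4 called genes per list, or the gene with the smallest p where none was called, and Pcyt2. Taz, Phb, Phb2, Kbtbd4, Rab24 and the respiratory subunit set, found by symbol, were added after their values were seen. Within each group every pair of libraries differed by 12.0 to 34.1 times sampling noise (chi-square per gene), so none was a copy. Same-numbered libraries had correlations of −0.11, −0.17 and 0.02 between their deviations from the group means. These values gave no sign of pairing by number, but with 3 libraries per group they cannot exclude it. Same-numbered libraries were of the same sex. One list of cell type markers is not reported here.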

Additional observations from a re-analysis of the deposited data

How the results depend on the processing

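The count of higher cardiolipin genes was 0 and became 1 (Cds2) with library size alone; the count of lower ones was 0 and ranged from 0 to 1 over the libraries left out in turn, the 1 being Stoml2. The members' median ranged from −0.15 to −0.0201 over the libraries left out and was 0.10 with library size alone. That scaling reversed Pgs1 (0.20), Ptpmt1 (0.0445), Lclat1 (0.16) and Triap1 (0.0317), with 0 of these 4 passing, moved Crls1 to −0.0046 and Prelid1 to 0.24, and gave 3225 higher and 499 lower genes in all, against 1328 and 1411 with TMM. Over the libraries left out, 4 fitted changes crossed 0: Cds1 ranged from −0.87 to 0.0522, above 0 only without control replicate 1, Pgs1 from −0.0824 to 0.0263, Lclat1 from −0.11 to 0.0422 and Prelid1 from −0.0341 to 0.0901, while all genes called ranged from 422 to 1337 higher and 424 to 1448 lower. Without replicate 2 of both groups, an alternative chosen after seeing the data, 0 of the 10 genes passed and Cds1 was at −0.9135 and Prelid1 at −0.0361. The TMM factors, which library size alone leaves out, were 0.9675, 0.8534 and 0.9724 in control replicates 1, 2 and 3. They were 1.0263, 1.1217 and 1.0818 in Myf5Cre-Pcyt2 replicates 1, 2 and 3. Why these factors differed between the groups, and the cause of the other shifts, was not tested.

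With the replicate block, 0 of the 10 cardiolipin genes passed, 865 genes were higher and 866 lower, and Stoml2 had an adjusted p of 0.127. With the block Pnpla8 (0.0846), Immt (0.0908) and Cs (0.162) did not pass, and with a covariate for sex Pnpla8 (0.0521) and Cs (0.0754) did not. Cds1 had the fewest counts of the 10 genes, 15 to 59 per library.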
